A study of Mus musculus with 6 samples.

Results

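The genes described here are 32 genes of protein folding in the endoplasmic reticulum (ER) and of the unfolded protein response. They are defined by function, as chaperones, ER-associated degradation factors, translocon subunits and stress sensors, by a rule that uses no measured value, although earlier results of these data were known when the list was drawn up. All 32 were found by gene symbol among the 39017 gene identifiers of the table, and all 32 passed the filter on low counts that left 16569 genes for testing. The libraries are RNA pulled down with tagged ribosomes from the corpus callosum, the white matter tract between the hemispheres. Both groups are C57BL/6 mice that carry RiboTag together with Olig1-Cre, so that RPL22, a protein of the large ribosomal subunit, gains an HA tag wherever Cre has acted, and anti-HA antibody collects those ribosomes. The cuprizone group (replicates 30, 31 and 32) received a diet with 0.2% cuprizone, a copper chelator that kills oligodendrocytes, and the control group (replicates 24, 26 and 27) is labelled Control, or Vehicle in the titles. By the protocol the mice were female, 8 to 10 weeks old, and ate the diet for 6 or 9 weeks, and 3 weeks of recovery are also mentioned, without saying which schedule these libraries follow. Olig1 is active from progenitors onward, so the tag is not limited to myelinating cells, and nothing in the labels says whether a library is 1 animal or a pool.

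The ER folds proteins that enter the secretory pathway, and an oligodendrocyte making myelin sends large amounts of membrane protein and lipid through it. When unfolded protein builds up, 3 sensors in the ER membrane respond. IRE1, encoded by Ern1, splices the mRNA of the transcription factor XBP1, ATF6 is cut to release a transcription factor, and PERK, encoded by Eif2ak3, phosphorylates eIF2 and so favours translation of ATF4. ATF6 and spliced XBP1 are known to raise chaperones and degradation factors through ER stress response elements, and ATF4 with its partner CHOP raises another set of genes through C/EBP-ATF elements. Counts per gene do not separate spliced from unspliced Xbp1.

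The promoters of the members hold the first kind of element at a higher share than promoters at large. Chaperones and degradation factors are known for this element, so that share is a description and not a test. Shares of members count genes, and shares at large count windows, of which a gene can have several. The sequences are shown because genes are grouped by the element further on. Windows from 250 bases before to 50 bases after the start came from RefSeq on GRCm38.p6, and 27 of the 32 members had one. The ER stress response element was searched on both strands as CCAAT, any 9 bases and CCACG, and its second form as ATTGG, any 1 base and CCACG. The first was in 9 of the 27 members (33.3%), Calr, Canx, Creld2, Derl3, Dnajc3, Hsp90b1, Hspa5, Pdia6 and Syvn1, and in 0.119% of all 32851 windows. The second was in Herpud1 and Dnajb11 and in 0.0365% of windows. The unfolded protein response element TGACGTGG was in 0 of the 27 and in 0.676% of windows, and the core of the C/EBP-ATF element, TGATGNAA, was in Herpud1 alone and in 3.97% of windows. Of 21 genes of the PERK arm with a window, 7 held that core and 0 held either form of the ER stress response element. No match of a member overlapped a match of another motif. Capitals mark the elements in these stretches of the strand of the gene, 5′ to 3′, all upstream of the start, and an element on the opposite strand reads as its reverse complement.
Hspa5, chr2:34771975-34772089, plus strand: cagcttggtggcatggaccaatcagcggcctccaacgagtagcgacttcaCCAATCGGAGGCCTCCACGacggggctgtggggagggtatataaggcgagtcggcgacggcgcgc
Hsp90b1, chr10:86705483-86705694, minus strand: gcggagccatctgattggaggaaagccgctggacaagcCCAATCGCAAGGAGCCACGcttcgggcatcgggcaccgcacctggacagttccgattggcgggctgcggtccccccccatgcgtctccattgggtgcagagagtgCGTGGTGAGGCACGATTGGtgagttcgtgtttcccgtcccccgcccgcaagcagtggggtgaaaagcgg
Pdia6, chr12:17266441-17266559, plus strand: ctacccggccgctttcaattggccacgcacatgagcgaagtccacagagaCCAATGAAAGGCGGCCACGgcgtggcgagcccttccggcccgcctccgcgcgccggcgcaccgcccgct
Syvn1, chr19:6046482-6046575, plus strand: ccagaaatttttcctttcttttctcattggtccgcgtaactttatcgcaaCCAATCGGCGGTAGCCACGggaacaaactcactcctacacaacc
Herpud1, chr8:94386267-94386428, plus strand, with the C/EBP-ATF core first: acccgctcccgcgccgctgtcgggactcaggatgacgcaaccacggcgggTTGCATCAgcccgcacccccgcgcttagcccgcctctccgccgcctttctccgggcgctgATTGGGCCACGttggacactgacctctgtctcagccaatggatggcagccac
Nupr1, a gene of the PERK arm, chr7:126625523-126625630, minus strand: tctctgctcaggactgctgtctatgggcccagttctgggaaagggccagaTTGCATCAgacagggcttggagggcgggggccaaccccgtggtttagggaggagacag

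Total counts ran from 19455245 to 22381307 in cuprizone libraries and from 18549360 to 18771737 in control libraries. The defining genes of myelinating oligodendrocytes were abundant, and the 16 on a list of them summed to 9157 to 17770 CPM (counts scaled to library size) in cuprizone libraries, against 69009 to 90761 CPM in control libraries. All 16 fell (13 to 16 with a library left out), with log2 fold changes of -2.62 for Mbp and -3.67 for Mog. Olig1 averaged 661 ± 167 CPM in cuprizone and 1438 ± 184 CPM in control (SD, n = 3 each). A list of 11 genes was named for progenitors, though Olig1 among them is active from progenitors onward. It summed to 1774 to 2633 CPM in cuprizone and 3260 to 3739 CPM in control, and this sum does not measure progenitors alone. Of the 11 genes 2 fell, Olig1 and Sox10, and Sox10 averaged 310 CPM in cuprizone and 736 CPM in control. Gpr17, next in abundance on the list, averaged 363 CPM in cuprizone and 351 CPM in control (log2 fold change 0.05). The median log2 fold change of the 11 was -0.11, with 3 positive and 8 negative. Genes of other cells were present as well. A list of 12 astrocyte genes summed to 16423 to 31782 CPM in cuprizone and 23461 to 26140 CPM in control, and 12 neuronal genes to 2738 to 5184 CPM in cuprizone and 2338 to 3537 CPM in control. The 15 genes of microglia and macrophages summed to 2372, 3193 and 5942 CPM in cuprizone replicates 30, 31 and 32, against 3126, 1696 and 1495 CPM in control replicates 24, 26 and 27. The 11 endothelial and mural genes summed to 105, 62.6 and 239 CPM in the same cuprizone order, against 70.4, 59.4 and 72.7 CPM in control. In these 4 lists 0 genes passed with edgeR, 0, 1, 4 and 4 had an unadjusted p under 0.05 in the order given, and DESeq2 called 0, 0, 2 and 2, all as higher. Over all genes tested, 23.3% had an unadjusted p under 0.05 with edgeR, and DESeq2 called 5.21% higher. With a library left out, edgeR called up to 1 astrocyte gene higher (1 without cuprizone replicate 32) and up to 2 endothelial and mural genes. Of 8 genes of plasma and B cells, which are rich in ER, 7 averaged under 1 CPM over the 6 libraries, and the other is the member Xbp1. The highest of the 7, Cd79b, averaged 1.25 CPM in cuprizone and 0.428 CPM in control. Rpl22, the tagged gene, averaged 76.4 ± 9.97 CPM in cuprizone and 70.4 ± 7.14 CPM in control (SD, n = 3 each). In such bulk RNA, fewer cells of a type and less RNA per cell cannot be told apart.

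The ER genes as a group showed small differences between cuprizone and control libraries. With edgeR's quasi-likelihood test and Benjamini-Hochberg adjustment over all genes, 0 of 32 passed an adjusted p of 0.05 as higher, where 1.87% of all genes tested did. As lower, 1 of 32 passed, where 5.70% of all genes tested did, and that gene was Syvn1. The log2 fold change of cuprizone over control ran from -0.45 for Syvn1 to 0.32 for Pdia4, was positive for 14 members and negative for 18, and had a median of -0.04, against 0.02 over all genes tested. At an unadjusted p under 0.05 there were 5 members, all lower in cuprizone (Syvn1, Ssr1, P4hb, Hsp90b1 and Dnajb11), against 23.3% of all genes tested in either direction. DESeq2 called 0 higher and 4 lower (Syvn1, Ssr1, P4hb and Hsp90b1), where 5.21% and 8.46% of all genes passed with that tool. Limma-voom called 0 higher and Syvn1 alone lower, where 1.77% and 5.87% of all genes passed.

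The intervals bound the size of a difference in the pulled-down RNA as a whole that the test could have missed. They do not bound a change within any single cell type, since genes of several cell types were present. The 95% interval of the log2 fold change lay between -1 and 1 for all 32 members, which 66.2% of all genes tested also did, so each interval excluded a change of 2-fold in either direction. The lowest bound was -0.73, for Ssr1, and the highest 0.68, for Pdia4. The coefficient of variation between libraries had a median of 9.84% in cuprizone and 6.66% in control over the members, against 16.8% and 12.2% over all genes tested. The p-values measure the spread between these libraries, which may be partly technical.

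**Figure D1:**
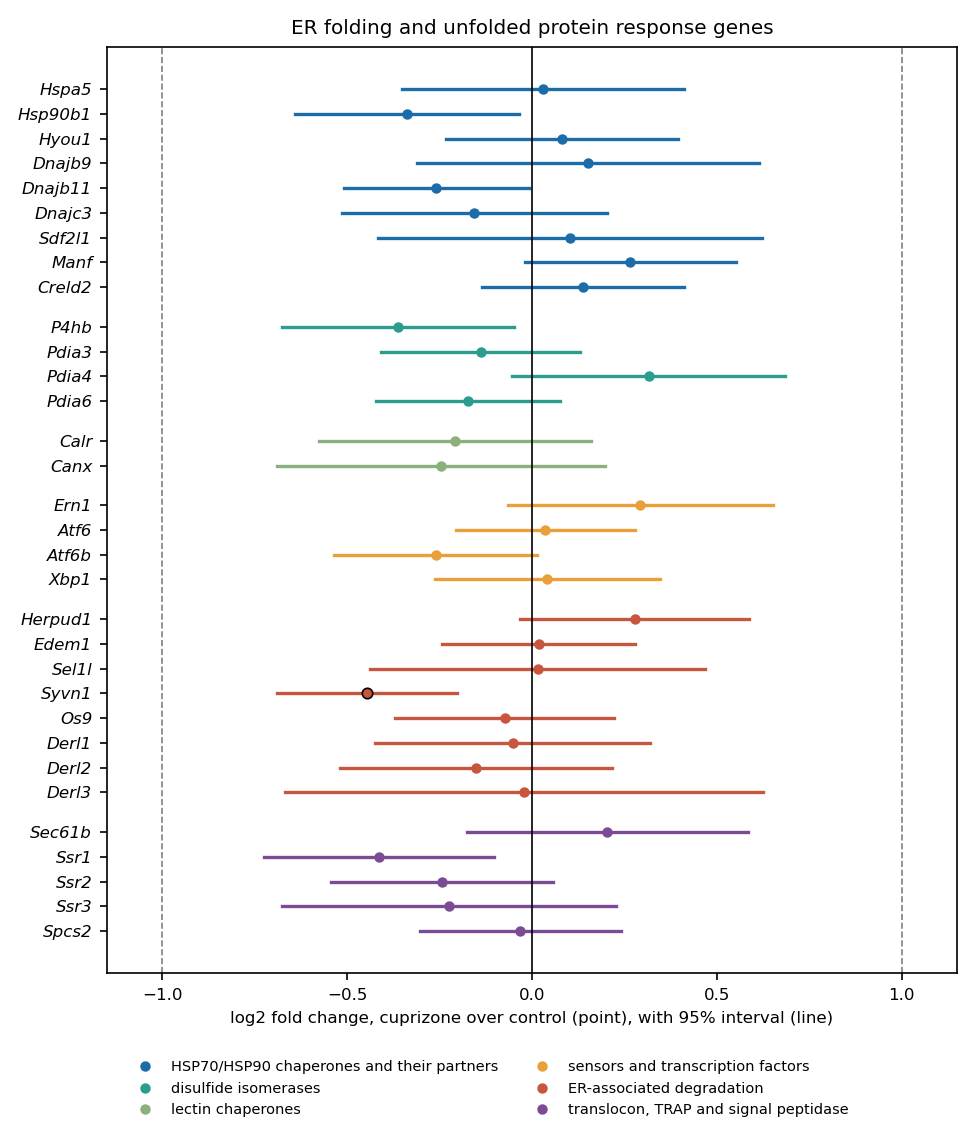
Log2 fold change of cuprizone over control for each of the 32 members (points) with its 95% interval (lines), coloured by role, 3 libraries per group. Every interval lies between the dashed lines at -1 and 1, and the black outline marks Syvn1, which passed an adjusted p of 0.05.

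Among the chaperones of the ER lumen, the log2 fold changes were positive for 6 of 9 and negative for 3, and 0 passed with edgeR. Hspa5 encodes BiP, the HSP70 of the ER that also holds the sensors inactive (ENSMUSG00000026864, GRCm38 chromosome 2, 34771970 to 34777547). It had 291, 283 and 300 CPM in cuprizone replicates 30, 31 and 32, against 229, 309 and 318 CPM in control replicates 24, 26 and 27. The cuprizone values lay inside the range of the controls, and control replicate 24 was the lowest library. The log2 fold change was 0.03 ± 0.16 (SE), with an interval of -0.35 to 0.41 and an adjusted p of 0.936, and it was -0.085 without control replicate 24. Hyou1, which exchanges nucleotide on BiP, showed the same low control, with 97.4, 92.7 and 92.5 CPM in cuprizone against 74.2, 95.4 and 97.3 CPM in control replicates 24, 26 and 27 (log2 fold change 0.08 ± 0.13).

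Hsp90b1 encodes GRP94, the HSP90 of the ER (chromosome 10, 86690209 to 86705509). It had 254, 281 and 268 CPM in cuprizone and 324, 328 and 362 CPM in control. The groups did not overlap, yet the log2 fold change of -0.34 ± 0.13 had an adjusted p of 0.173, and 0.024 with DESeq2. Part of its exons is shared with a gene on the opposite strand, which holds for 8 of the 32 members, and whether the authors counted by strand is not stated in the labels. Its exons also overlap Gm15344 and Gm25745 on the same strand, by 217 bases in total, which counting by strand would not separate. Dnajb11, which brings unfolded clients to BiP, had 55.5, 62.9 and 54.4 CPM in cuprizone against 66.8, 67.8 and 72.0 CPM in control (log2 fold change -0.26 ± 0.11, adjusted p = 0.201), again without overlap.

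The remaining partners of BiP split in sign and did not pass the test. Manf, a secreted factor that binds BiP, was the member whose cuprizone libraries all lay above the controls, with 60.1, 65.6 and 63.3 CPM against 49.8, 47.7 and 59.8 CPM in control. Its log2 fold change was 0.27 ± 0.12 (adjusted p = 0.242). Dnajb9, a target of XBP1 that helps keep IRE1 inactive, had 39.9 and 40.5 CPM in cuprizone replicates 30 and 31 but 25.99 CPM in replicate 32, against 27.2, 35.0 and 33.5 CPM in control. Its log2 fold change was 0.15 ± 0.20, and 0.33 without cuprizone replicate 32 (adjusted p = 0.197). Sdf2l1, a partner of the J-domain chaperones, was highest in that replicate, with 17.04, 26.2 and 31.04 CPM in cuprizone replicates 30, 31 and 32 against 25.5, 20.9 and 22.8 CPM in control (log2 fold change 0.10 ± 0.22). Dnajc3, a co-chaperone of BiP, and Creld2, an ER stress gene with repeats like those of EGF, had log2 fold changes of -0.16 ± 0.15 and 0.14 ± 0.12.

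Of the 4 disulfide isomerases 3 had negative log2 fold changes, as did both lectin chaperones, and Pdia4 had the highest one of all members. P4hb encodes protein disulfide isomerase itself, and it had 239, 279 and 239 CPM in cuprizone against 331, 336 and 306 CPM in control. Its groups did not overlap, and the log2 fold change was -0.36 ± 0.13 (adjusted p = 0.161, and 0.0402 with DESeq2). Pdia4 had 144, 121 and 97.0 CPM in cuprizone replicates 30, 31 and 32 against 94.3, 98.2 and 98.5 CPM in control. Thus 2 cuprizone libraries stood above every control and the other lay within them, and the log2 fold change of 0.32 ± 0.16 (adjusted p = 0.28) became 0.45 without replicate 32 (adjusted p = 0.0544). The ratio of Pdia4 to P4hb per kilobase of exon was 0.717, 0.519 and 0.484 in cuprizone and 0.340, 0.348 and 0.384 in control, without overlap. That pair was picked after its values were seen and was not tested. Among the other pairs looked at, the groups also did not overlap for Hspa5 to Hsp90b1 (0.958 to 1.09 in cuprizone, 0.673 to 0.897 in control). The same held for Atf6 to Atf6b (0.272 to 0.343 in cuprizone, 0.228 to 0.263 in control). For Calr to Canx and Derl1 to Derl2 the groups overlapped, and none of these pairs was tested.

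Pdia3, which works with the lectin chaperones, and Pdia6 had log2 fold changes of -0.14 ± 0.11 and -0.17 ± 0.11, each without overlap between the groups. For Pdia3 the 3 cuprizone libraries were 199 to 203 CPM and the controls 210 to 233 CPM. Calr and Canx encode calreticulin and calnexin, which hold glycoproteins until they are folded. Calr had 371, 422 and 469 CPM in cuprizone against 482, 446 and 528 CPM in control, and Canx 401, 399 and 276 CPM against 383, 451 and 443 CPM. In both the groups overlapped, with log2 fold changes of -0.21 ± 0.16 and -0.25 ± 0.19. Calr was the most abundant member per length, at 146 CPM per kilobase of exon in cuprizone and 168.5 CPM per kilobase in control.

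**Figure D2:**
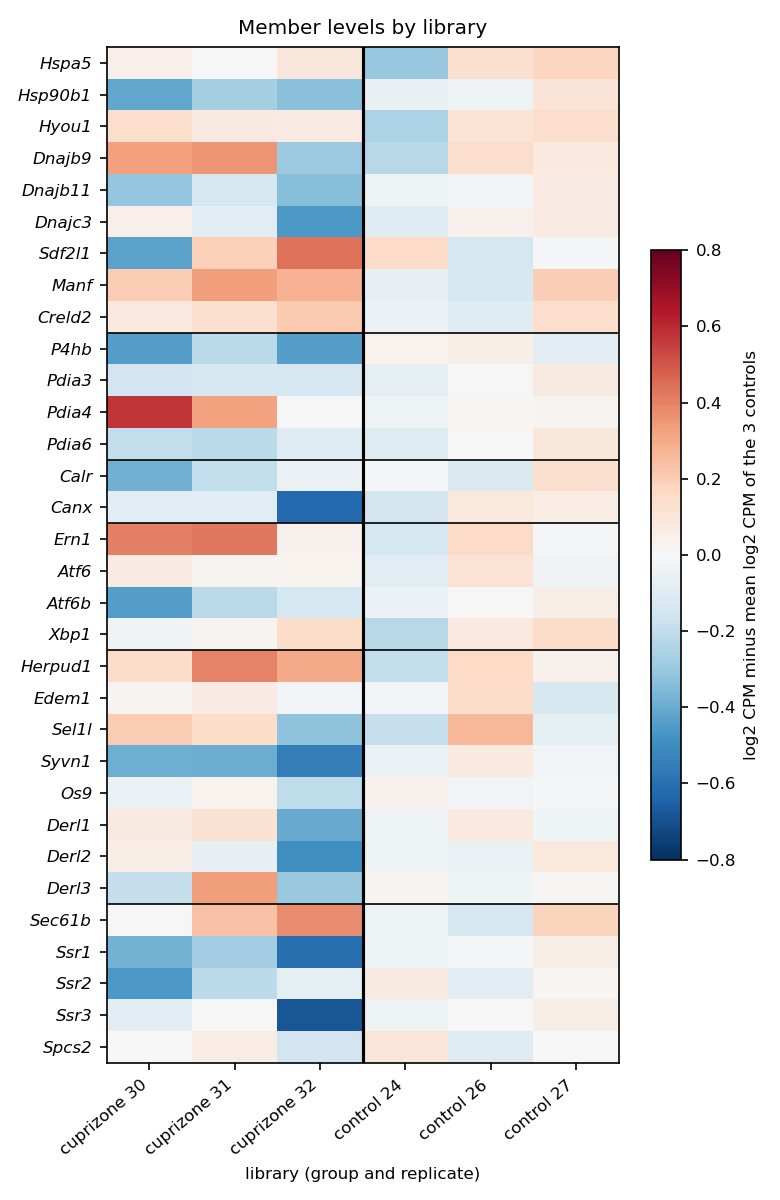
Level of each member in each library, as log2 CPM minus the mean log2 CPM of the 3 control libraries, with cuprizone libraries left of the line and members in blocks by role. Blue runs through cuprizone for Hsp90b1, P4hb, Syvn1 and Ssr1, while Canx, Ssr3, Derl1 and Dnajc3 are darkest in replicate 32 alone.

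Of the 4 sensors and transcription factors 0 passed with edgeR or DESeq2, and 0 had an unadjusted p under 0.05. Xbp1 had 67.6, 70.0 and 76.4 CPM in cuprizone against 59.0, 72.7 and 76.2 CPM in control (log2 fold change 0.04 ± 0.13, interval -0.26 to 0.35). Atf6 had 67.8 to 69.7 CPM in cuprizone and 62.7 to 72.4 CPM in control, with a log2 fold change of 0.04 ± 0.10. In both genes the groups overlapped. Ern1, which encodes the sensor IRE1, was low in every library, with 19.3, 19.5 and 14.9 CPM in cuprizone replicates 30, 31 and 32 against 13.2, 16.2 and 14.4 CPM in control. Its log2 fold change of 0.29 ± 0.15 had an adjusted p of 0.297. Atf6b, a relative of ATF6, had 60.7, 71.1 and 74.8 CPM in cuprizone and 79.7, 82.3 and 85.5 CPM in control, without overlap (log2 fold change -0.26 ± 0.12, adjusted p = 0.234).

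In ER-associated degradation, the ligase gene fell and its partners did not pass the test. Syvn1 encodes HRD1, the ubiquitin ligase that marks misfolded ER proteins for the proteasome (ENSMUSG00000024807, chromosome 19, 6046576 to 6053712). It had 53.9, 53.7 and 48.2 CPM in cuprizone, against 68.1, 74.5 and 69.5 CPM in control. All 3 cuprizone libraries were below all 3 controls, with a log2 fold change of -0.45 ± 0.10 (adjusted p = 0.0463). The call is narrow, since the adjusted p was 0.0521 to 0.161 with any library left out, 0.0678 with upper-quartile scaling and 0.0773 with no filter on low counts, while the fold change stayed between -0.47 and -0.39. Of the exons of Syvn1, 91 bases are shared with Mrpl49 on the opposite strand. Sel1l, the adaptor that holds HRD1 in its complex, had 245, 236 and 171 CPM in cuprizone against 188, 256 and 202 CPM in control (log2 fold change 0.02 ± 0.19).

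Herpud1, a ubiquitin-like scaffold of the same complex and the member with both kinds of element, had 61.8, 73.4 and 69.0 CPM in cuprizone against 48.7, 62.5 and 57.3 CPM in control. The lowest cuprizone library lay just under the highest control, and the log2 fold change of 0.28 ± 0.13 had an adjusted p of 0.258. Edem1, which trims mannose from misfolded glycoproteins, and Os9, a lectin that reads the trimmed sugar, had log2 fold changes of 0.02 ± 0.11 and -0.07 ± 0.13. The derlins, which form part of the channel out of the ER, had -0.05 ± 0.16 for Derl1, -0.15 ± 0.16 for Derl2 and -0.02 ± 0.28 for Derl3. Derl3 had only 24 to 41 reads per library and was the least abundant member per length, at 0.69 CPM per kilobase in cuprizone and 0.70 CPM per kilobase in control.

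At the ER entrance, the 3 TRAP subunits among the members all had negative log2 fold changes, and none passed the test with edgeR. TRAP assists the translocon, and its further subunit Ssr4, which is not a member, had a log2 fold change of 0.02. Ssr1 had 195, 210 and 167 CPM in cuprizone and 248, 253 and 262 CPM in control. Its groups did not overlap, and its log2 fold change of -0.41 ± 0.13 had an adjusted p of 0.117, and 0.0213 with DESeq2. Ssr2 had a log2 fold change of -0.24 ± 0.13. Ssr3 had 211 and 225 CPM in cuprizone replicates 30 and 31 but 140 CPM in replicate 32, against 218 to 232 CPM in control, and its log2 fold change was -0.22 ± 0.19, or -0.04 without replicate 32. Sec61b, a small subunit of the translocon, and Spcs2, a subunit of signal peptidase, had log2 fold changes of 0.20 ± 0.16 and -0.03 ± 0.12.

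Counted over all members, the cuprizone libraries all lay below the controls for 8 (Hsp90b1, Dnajb11, P4hb, Pdia3, Pdia6, Atf6b, Syvn1 and Ssr1), where 17.6% of all genes tested did. They all lay above for 1, Manf, where 12.6% did. Summed over the 32 members, the level was 4006, 4179 and 3712 CPM in cuprizone replicates 30, 31 and 32, against 4166, 4449 and 4532 CPM in control replicates 24, 26 and 27. Within the control group, replicate 24 held the lowest value for 20 members and replicate 27 for 2, where 37.5% and 26.6% of all genes tested were lowest there. Within the cuprizone group, replicate 32 was lowest for 17 members and replicate 31 for 3, where the shares over all genes were 41.0% and 28.0%. Cuprizone replicate 32 stood apart from its group over the whole table, where its counts gave chi-square values of 85.1 and 101 per degree of freedom when set against those of replicates 30 and 31. Replicate 32 and control replicate 24 also had the highest summed microglial level of their groups, and replicate 32 the highest endothelial one. The astrocyte sum of replicate 32 was the lowest of its group, at 16423 CPM against 26965 and 31782 CPM in replicates 30 and 31. Its neuronal sum was the highest, at 5184 CPM against 3612 and 2738 CPM. The part of these differences in the levels of the ER genes was not tested. Without replicate 32 the median of the members was -0.01, with 0 called in either direction.

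**Figure D3:**
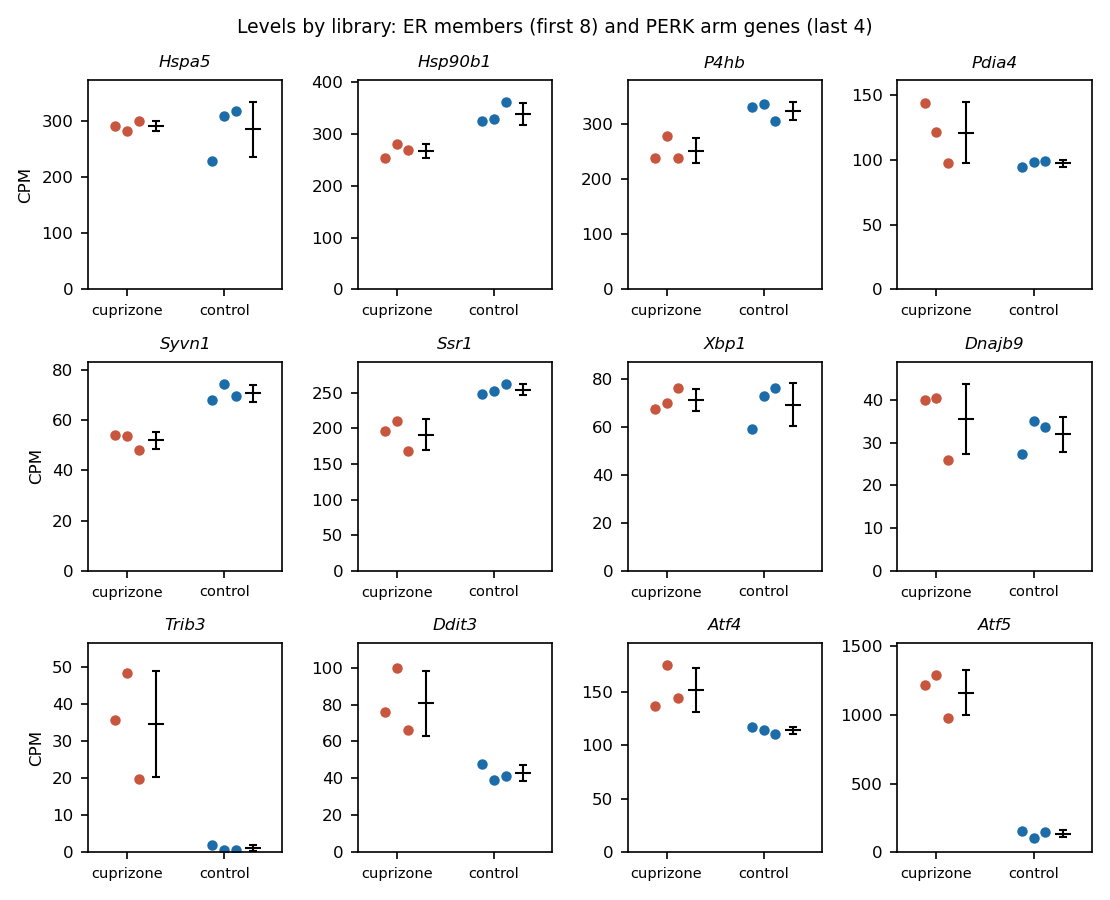
CPM in each library for 8 ER members and 4 genes of the PERK arm, cuprizone on the left of each panel and control on the right, with mean and SD in black (n = 3 each). Hspa5, Xbp1 and Dnajb9 overlap between groups, while Trib3, Ddit3, Atf4 and Atf5 do not.

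In the same libraries most genes of a list named for the PERK arm rose, and whether PERK itself was active was not tested. Of 24 genes of that arm and of ATF4-CHOP targets, 15 rose and 0 fell with edgeR, and 16 rose and 1, Vldlr, fell with DESeq2. At an unadjusted p under 0.05 there were 17 higher and 4 lower. The log2 fold change was positive for 18 and negative for 6, with a median of 1.14. The 6 were Vldlr, a lipoprotein receptor (-0.87), Ddit4 (-0.56), Psat1 (-0.46), Eif2ak3 (-0.35), Phgdh (-0.33) and Cth (-0.12). All of these but Eif2ak3 are named here for those values. The 24 genes summed to 4052, 4211 and 3075 CPM in cuprizone against 2000, 1996 and 1847 CPM in control. With a library left out 8 to 14 rose, with 8 without cuprizone replicate 30 or control replicate 27 and 9 without control replicate 26. Trib3, a pseudokinase induced by ATF4 and CHOP, had 35.5, 48.3 and 19.9 CPM in cuprizone against 2.004, 0.68 and 0.70 CPM in control. Its log2 fold change was 4.94 ± 0.51 (adjusted p = 0.00254). Ddit3, which encodes CHOP, had 75.8, 99.9 and 66.0 CPM in cuprizone against 48.0, 39.3 and 41.5 CPM in control, and its log2 fold change of 0.91 ± 0.18 (adjusted p = 0.024) lost its call without cuprizone replicate 30 (0.069) or control replicate 24 (0.0514), 26 (0.101) or 27 (0.11).

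The gene of the sensor itself did not pass the test. Eif2ak3 had 34.0, 33.4 and 24.1 CPM in cuprizone against 37.5, 45.3 and 33.6 CPM in control, a log2 fold change of -0.35 ± 0.18 (adjusted p = 0.291). Atf4 had a log2 fold change of 0.41 ± 0.13 without overlap (adjusted p = 0.114, and 0.0309 with DESeq2). The smallest adjusted p of the list belonged to Atf5, a transcription factor translated under stress, Aldh18a1, an enzyme of proline synthesis, and Nupr1, a chromatin protein of stress, with log2 fold changes of 3.11, 1.72 and 2.85. The difference between the 2 lists was not tested.

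**Figure D4:**
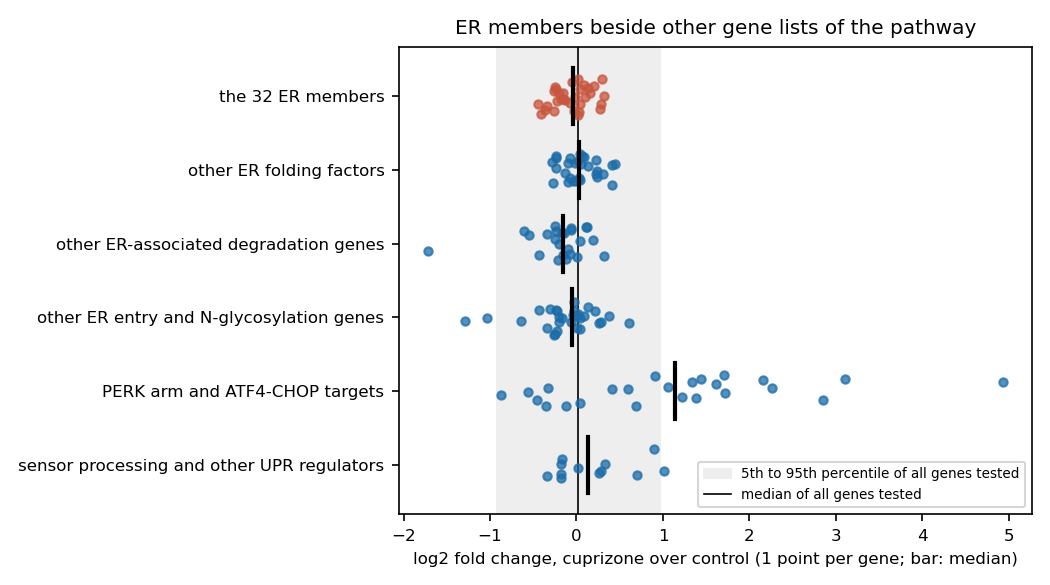
Log2 fold changes of the 32 ER members and of 5 further gene lists, 1 point per gene, with the list median as a bar, over the 5th to 95th percentile of all genes tested in grey. The ER members lie between -0.45 and 0.32, and the PERK arm has a median of 1.14.

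Other genes in the same processes are counted here beside the shares over all genes tested. With edgeR those shares were 1.87% higher and 5.70% lower, and with DESeq2 5.21% and 8.46%. An unadjusted p under 0.05 was found for 23.3% of all genes tested with edgeR. Among 29 further ER folding factors 0 passed with edgeR, or 2 higher without cuprizone replicate 32. At an unadjusted p below 0.05 there were 2, and DESeq2 called 1 of the 29 as higher. The smallest adjusted p were those of Txndc5, a disulfide isomerase (0.41 ± 0.12, adjusted p = 0.0935, and 0.0327 without cuprizone replicate 32), Sil1, which exchanges nucleotide on BiP (-0.27 ± 0.10), and Txndc11 (0.23 ± 0.11). Of 24 other degradation genes 2 fell. Trim13, a ubiquitin ligase anchored in the ER, had 5.95, 6.33 and 4.81 CPM in cuprizone against 19.2, 19.6 and 17.6 CPM in control (log2 fold change -1.72 ± 0.15, adjusted p = 0.00157). Bcap31, a sorting protein of the ER membrane, fell by 0.61 on the log2 scale (adjusted p = 0.0191), a call lost without cuprizone replicate 30 or any control library (adjusted p up to 0.0957). Edem2, a mannosidase, had -0.55 ± 0.16 (adjusted p = 0.0932).

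Of 30 other genes of ER entry and N-glycosylation 3 fell, Sec11c, a catalytic subunit of signal peptidase (-1.29 ± 0.25), Magt1, a subunit of the oligosaccharyltransferase (-1.03 ± 0.18), and Tmem258, of the same enzyme (-0.64 ± 0.12). With a library left out 0 to 3 fell, with 0 without cuprizone replicate 30 or control replicate 26 or 27 and 1 without control replicate 24. DESeq2 called 1 of the 30 higher and 4 lower, where 5.21% and 8.46% of all genes passed with that tool. Of 12 further regulators of the response tested, 1 rose. Creb3l1, a transcription factor held in the ER membrane until it is cut, had 33.4, 31.4 and 26.3 CPM in cuprizone against 18.5, 14.2 and 12.6 CPM in control (1.01 ± 0.18, adjusted p = 0.0163, and up to 0.0863 without cuprizone replicate 30 or control replicate 26 or 27). Bbc3, which promotes apoptosis, had 0.70 ± 0.20 (adjusted p = 0.0891). Wfs1, an ER membrane protein, had 118, 113 and 303 CPM in cuprizone against 94.3, 105 and 88.1 CPM in control, so that its log2 fold change of 0.89 ± 0.38 (adjusted p = 0.215) became 0.27 without replicate 32.

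Genes were then grouped by promoter element rather than by name. Over all genes tested, edgeR called 1.87% higher and 5.70% lower, and DESeq2 called 5.21% and 8.46%. An unadjusted p under 0.05 with edgeR was found for 23.3% of them. Over the genome 18 genes with an ER stress response element in their window were tested, 9 of them members. Of the 18, 0 were called higher and 1, Syvn1, lower, with a median log2 fold change of -0.16, and 2 had an unadjusted p under 0.05. Over the 9 that are not members the median was -0.13, with 0 called and 0 at an unadjusted p under 0.05 with edgeR and 0 called by DESeq2. Of 8 genes with the second form 0 were called by edgeR or DESeq2, and 1 had an unadjusted p under 0.05. Of 122 genes with the unfolded protein response element, none of them members, 1 was called higher and 8 lower by edgeR (0.82% and 6.56%), 32 had an unadjusted p under 0.05, and 8 were called higher and 13 lower by DESeq2. Of 315 genes with the core of the C/EBP-ATF element, 6.35% were called higher, where 1.87% of all genes tested were, and 4.44% lower, where 5.70% were, with a median of 0.08, and 6 of the 20 higher ones belong to the PERK arm list. In the same group of 315, 95 had an unadjusted p under 0.05 with edgeR, and DESeq2 called 43 higher and 25 lower. A match of letters is a description of the window, not of a factor bound there.

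**Figure D5:**
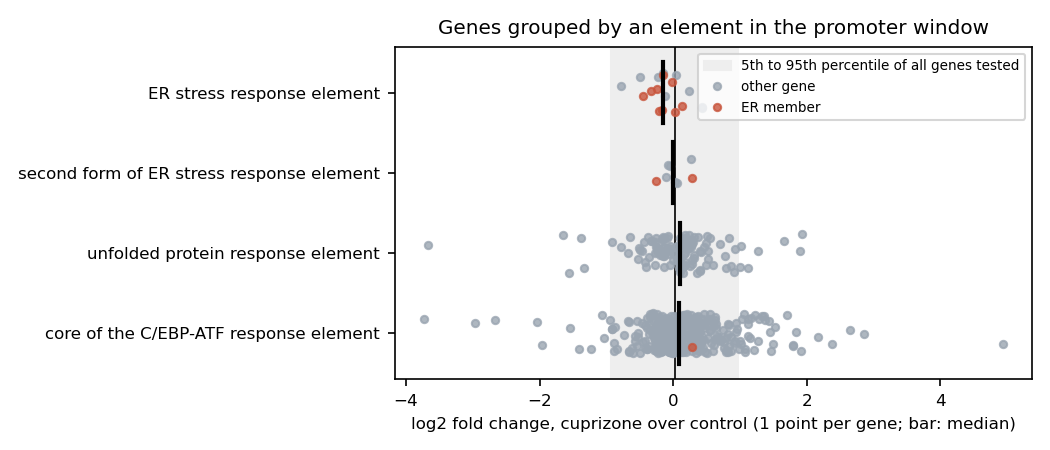
Log2 fold change of genes tested whose promoter window holds each element, 1 point per gene, ER members in red, medians as bars, and the 5th to 95th percentile of all genes tested in grey. All 18 genes with the first element lie within the grey band.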

How the data were processed

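The authors deposited raw read counts per Ensembl mouse gene for 6 libraries. The submitters' processing notes name bcl2fastq 2.17 and mm10. Aligner, counter, annotation and use of strand: not given in the sources used here, so that a read where 2 genes overlap antisense to each other could count for either. Columns were matched to samples by title. Names, coordinates (1-based, GRCm38) and exonic lengths came from GENCODE M21, which matched 37607 of 39017 identifiers. The others held 0.393% to 0.467% of a library's counts and stayed in the tests.

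The analysis used edgeR 4.0.16 (R 4.3.3). Genes were kept by filterByExpr (minimum count 10), library sizes were scaled by TMM (factors 1.05 to 1.11 in cuprizone, 0.915 to 0.941 in control), and the 2-sided glmQLFTest after a robust glmQLFit set cuprizone over control, with p-values adjusted by Benjamini and Hochberg's method over 16569 genes and called at 0.05. CPM use TMM-scaled library sizes. The standard error is the fold change over the square root of F, and the 95% interval uses the t quantile of the fit. Permuting 3 against 3 libraries gives 0.1 at best, so single genes were not permuted. Replicates differed beyond sampling noise (chi-square per degree of freedom 24.4 to 101). Alternatives were other scalings, filters, DESeq2 1.42.0, limma-voom (limma 3.58.1) and leaving out each library. The procedure was tested on simulated counts with changes larger than that of any member, so its power at their size was not tested.

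The members, lists and motifs were chosen with earlier results of these data known. The text names every member, from each pathway list the 3 with the smallest adjusted p-values, and 8 further genes (Eif2ak3, Atf4, Ddit3, Trib3, Rpl22, Olig1, Mbp and Mog). The rule also took the 3 most abundant genes of each marker list, which are given as list sums, Cd79b, Sox10 and Gpr17 apart. Lhfpl3 of the progenitor list had no match. Vldlr, Ddit4, Psat1, Phgdh, Cth, Ssr4, Tusc3, Sec11a and Creb3l2 were chosen after their values were seen.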

Additional observations from a re-analysis of the deposited data

How the results depend on the processing

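No paired analysis was possible because the groups share no replicate number. The number of ER members called higher was 0 under all 13 alternatives. The number called lower was 0 with upper-quartile scaling or no filter on low counts and with each library left out, and 4 with DESeq2, against 1 otherwise. The median log2 fold change of the members ran from -0.14, without cuprizone replicate 31, to -0.0096, without cuprizone replicate 32, when a library was left out, and was 0.013 with upper-quartile scaling. No scaling moved the median of all genes by more than 0.0561. Over all genes DESeq2 called 862 higher, and with a library left out 65 to 464 were higher and 474 to 963 lower. For Syvn1 the adjusted p was 0.0678 with upper-quartile scaling and 0.0773 with no filter. Signs of members near 0 turned: with upper-quartile scaling Derl1 to 0.0027, Derl3 to 0.031 and Spcs2 to 0.023. With a library left out, the ranges were -0.085 to 0.11 for Hspa5, -0.012 to 0.15 for Hyou1, -0.091 to 0.31 for Sdf2l1, -0.040 to 0.11 for Xbp1, -0.048 to 0.10 for Edem1, -0.081 to 0.17 for Sel1l, -0.15 to 0.10 for Derl1, -0.24 to 0.10 for Derl3 and -0.081 to 0.040 for Spcs2. The cause was not tested. Depth limits Derl3 most, with 24 to 41 reads per library.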

Other observations

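Some genes with alternative partners at the ER membrane passed the test with edgeR where the partner did not. These pairs were chosen after their values were seen, and the difference within each pair was not tested. Magt1 and Tusc3 encode alternative subunits of the oligosaccharyltransferase. Magt1 had 34.0, 42.1 and 26.3 CPM in cuprizone against 63.1, 73.6 and 72.9 CPM in control, and Tusc3 had 82.3, 62.1 and 74.5 CPM in cuprizone against 35.6, 54.4 and 54.2 CPM in control (log2 fold change 0.60 ± 0.19, adjusted p = 0.121 with edgeR and 0.0462 with DESeq2). Magt1 was lower in every cuprizone library than in any control library, and Tusc3 was higher in each.

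Sec11c and Sec11a encode alternative catalytic subunits of signal peptidase. Sec11c had 40.9, 73.6 and 38.5 CPM in cuprizone against 127, 133 and 115 CPM in control, while Sec11a had 20.2, 20.01 and 20.4 CPM in cuprizone against 19.7, 17.1 and 18.7 CPM in control (log2 fold change 0.13 ± 0.11, adjusted p = 0.525). Creb3l1 rose, as given above, and its relative Creb3l2 had 61.0, 76.1 and 48.7 CPM in cuprizone against 77.5, 75.1 and 83.6 CPM in control (log2 fold change -0.35 ± 0.17, adjusted p = 0.273).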
